A study of Mus musculus with 6 samples.

Results

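The 35 genes described here encode the steps by which a heart cell takes up glucose, breaks it down to pyruvate and lactate, and stores and releases it as glycogen. They were chosen by symbol, from a list of genes for glucose transport, glycolysis, lactate and glycogen metabolism, and are 35 of the 24404 genes in the table. The rule itself uses no measured value. Hearts came from WT mice and from miR-204-/- mice, which lack a microRNA, and their RNA was sequenced. Every animal had undergone transaortic constriction, a narrowing of the aorta that loads the left ventricle with pressure, and hearts were taken 5 weeks later. The groups are called WT-TAC and KO-TAC, with 3 libraries each. Hearts without surgery were not analysed here, so each value compares the genotypes under load and none shows what the surgery did. The age of the mice, the kind of knockout allele and the number of animals per library are unstated in the labels. P-values therefore measure the spread between these libraries, which may be partly technical.

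A resting heart burns mostly fatty acids, and a heart under pressure load is known to shift towards glucose. Glucose enters through transporters of the Slc2a family, is trapped by hexokinase, committed to glycolysis by phosphofructokinase and carried down to pyruvate, which lactate dehydrogenase exchanges with lactate. Several of these enzymes come as a muscle isoform and a more widely expressed or fetal isoform made from separate genes. Glycogen is built by glycogen synthase on a glycogenin primer and broken down by glycogen phosphorylase, which phosphorylase kinase switches on.

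MicroRNAs such as miR-204 lower the output of transcripts that pair with their seed, bases 2 to 8, so the sequence is shown first, with the only matching stretches found in these genes. The mature strand, from RefSeq on GRCm38.p6 at chr19:22750610-22750631 on the plus strand, has its seed in capitals.
miR-204-5p: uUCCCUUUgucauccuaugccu
The longest annotated 3′ UTR of each gene was searched for AAAGGGA, the DNA letters that pair with the whole seed, on the transcript strand. Of the 35 genes 1 held it, Slc2a3, which encodes the glucose transporter GLUT3. It had 2 matches in a 3′ UTR of 2122 bases, at UTR bases 1071 to 1077 and 1643 to 1649, shown here 5′ to 3′ with the match in capitals.
Slc2a3 first match: ttcattttggtttAAAGGGAtt
Slc2a3 second match: ggtggctttatttAAAGGGAgt
The same letters were in 2046 of 12037 tested genes with an annotated 3′ UTR, which is 17.0%, against 2.86% of the 35. Median UTR length was 1020 bases in the 35 genes and 1252 in the tested genes. The 6-letter core AAGGGA, which those 7 letters contain, was in 9 of the 35 genes (25.7%, against 38.5% of tested genes), among them Slc2a1, Slc2a4, Pfkfb2 and Pfkfb3. A match is a description of the sequence and shows no binding.

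The libraries held 6411538 to 8571737 counts, and the 35 genes took 0.943% to 1.17% of them. The 7 ventricular cardiomyocyte markers summed to 66559 to 94807 CPM, the count scaled to a common library size with edgeR's TMM factors, so each library held abundant heart muscle RNA. The targeted microRNA is too short for these libraries. Its host gene Trpm3 had a log2 fold change of 0.02 ± 0.37 (SE). As the kind of knockout allele is unstated, that value gave no check of the genotype. Levels of genes known to respond to load differed within the groups. Nppa, a natriuretic peptide gene that responds to wall stretch, stood at 7904, 2444 and 2668 CPM in WT-TAC 1 to 3 and at 6603, 5033 and 311 in KO-TAC 1 to 3. Nppb, its ventricular relative, was likewise lowest in KO-TAC 3 (129 CPM), but Myh7, the fetal myosin heavy chain, was not (6578). Summed atrial markers were also lowest there, 130 CPM against 600 to 1086, as were smooth muscle markers, 65.0 CPM against 173 to 258. The part of atrial tissue in the Nppa values was not tested. WT-TAC 1 had the highest summed platelet markers, 125 CPM against 14.3 to 46.1. Its collagens Col1a1 (917 CPM) and Col1a2 (718) were the highest too, and with them the fibroblast sum, but of the other fibroblast markers Dcn was lowest there (302) and Pdgfra and Lum were highest in KO-TAC 1. No marker was called between the genotypes. An unadjusted edgeR p under 0.05 was reached, lower in KO-TAC, by all 3 tested platelet markers, Myh11 of smooth muscle, Nr2f2 of the atrial list and Alas2 of the erythroid list, and, higher in KO-TAC, by Kdr of the endothelial list. Alas2 was the only erythroid marker tested, because the other 4 had no count in any library. In tissue RNA, fewer cells of a type and less RNA per cell cannot be told apart. The 8 fast skeletal muscle markers summed to 1.63 to 8.97 CPM, with 1 of them at 0 in all libraries, so RNA of fast skeletal muscle, which shares several of these isoforms, was near 0.

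The library assigned to KO-TAC 3 stood nearer to WT-TAC 3, whose column number it bears, than to its own group. Over the 12487 tested genes its log2 CPM correlated at 0.955 with WT-TAC 3 and at 0.930 and 0.937 with KO-TAC 1 and 2. With WT-TAC 2 it correlated at 0.944 and with WT-TAC 1 at 0.905 (across genes, which are not replicates). The median chi-square of the counts against WT-TAC 3 was the lowest of all pairs of libraries, and it was 5.94 and 5.99 against KO-TAC 1 and 2. Without it 723 genes over the whole table had an unadjusted edgeR p under 0.05, in place of 366, and 6 were called, in place of 3. Of the 35 genes 0 were called without it, and the median log2 fold change was 0.05.

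None of the 35 genes differed between the genotypes in edgeR's quasi-likelihood test, in which all 35 were tested. Called genes, those with an adjusted p (Benjamini-Hochberg, over every tested gene) under 0.05, were 0 of 35, and the background was 3 of 12487 tested genes, or 0.0240%. DESeq2 and limma-voom also called 0 of the 35. At an unadjusted edgeR p under 0.05 there were 2, Pfkfb3 and Pgam1, which is 5.71% of the 35 against 2.93% of all tested genes. Log2 fold changes, KO-TAC over WT-TAC, were positive for 21 genes and negative for 14. Their median was 0.06, against 0.00 over all tested genes, and it turned to −0.01 without WT-TAC 1 and to −0.02 without KO-TAC 2. An absolute log2 fold change of at least 0.5 was reached by 6 genes, 17.1% of the 35 against a background of 14.9%.

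The intervals bound what these libraries could have missed. For 28 of the 35 genes the 95% interval of the fold change lay within 0.5-fold to 2-fold, and the median standard error was 0.21 on the log2 scale, against 0.29 over all tested genes. The other 7 were genes of low level or large spread between libraries: Slc2a3, Pfkfb1, Pfkfb3, Pgam1, Eno1, Ppp1r3a and Phkg1. For those a 2-fold difference in at least 1 direction lay inside the interval.

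**Figure D1:**
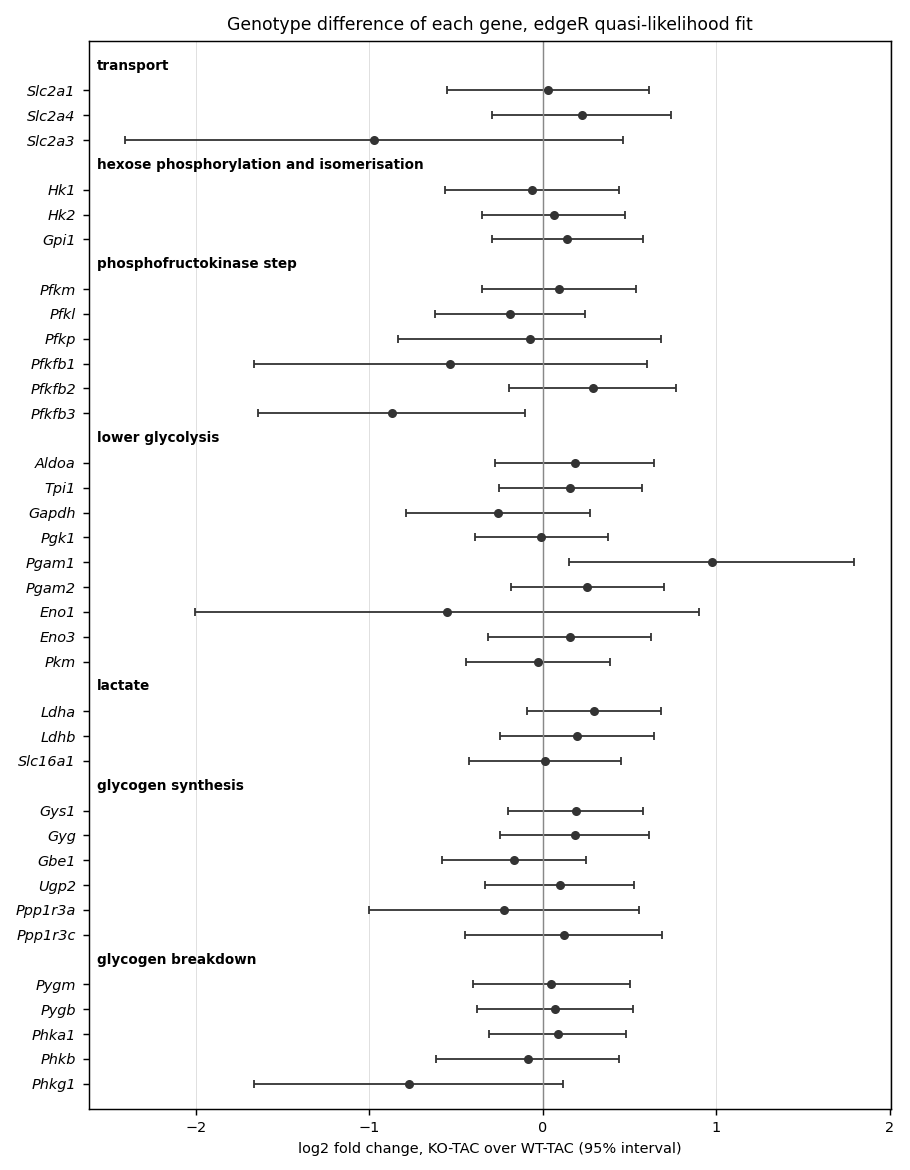
Log2 fold change of each gene, KO-TAC over WT-TAC (points), with its 95% interval (bars) from the edgeR fit on 3 libraries a group, grouped by metabolic step. Only the intervals of Pfkfb3 and Pgam1 lie to one side of 0, before adjustment for the number of genes tested.

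Per kilobase of annotated exon, the abundant transcripts were those of the muscle and heart isoforms. Averaged over the 6 libraries, Pgam2 led with 641 ± 113 CPM per kilobase (SD, n = 6), followed by Ldhb with 580 ± 80.6, Aldoa with 427 ± 65.0, Eno3 with 324 ± 57.6, Pygm with 264 ± 36.8 and Pfkm with 214 ± 28.6. In that order the ranges over libraries overlapped for each pair of neighbours, as for Pgam2 (517 to 855) and Ldhb (431 to 661). At the other end stood Pfkfb1 with 1.32 ± 0.62, Slc2a3 with 0.47 ± 0.37 and Eno1 with 0.35 ± 0.09. For Eno1, level and rank are uncertain, because 85.6% of its transcript matched other annotated transcripts at 95% identity or more. The sources used here do not say how reads with several matches were counted. The length used decides part of that order: divided by the longest transcript instead of all exons, Aldoa led with 1023 ± 156 CPM per kilobase, above Ldhb with 698 ± 97.0 and Pgam2 with 641 ± 113.

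**Figure D2:**
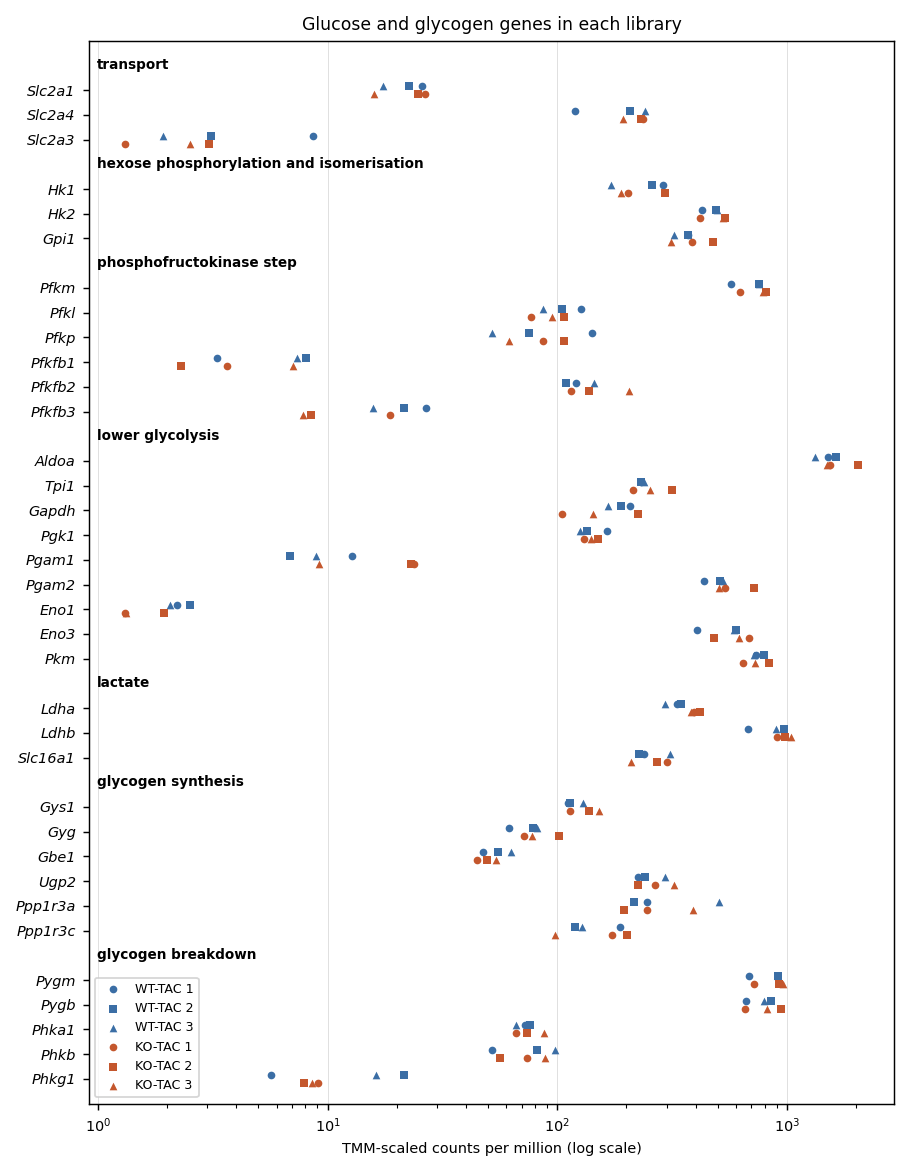
TMM-scaled CPM (log axis) of each gene in each of the 3 WT-TAC (blue) and 3 KO-TAC (orange) libraries, by metabolic step. Groups are fully apart for 2 genes, Ldha with KO-TAC higher and Eno1 with KO-TAC lower, and interleave for the other 33.

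None of the 3 glucose transporters differed between the genotypes beyond the spread of libraries. Slc2a4 encodes GLUT4, the insulin-responsive transporter of muscle and fat (chr11:69942539-69948188, GRCm38, minus strand). It stood at 119, 207 and 241 CPM in WT-TAC 1 to 3 and at 237, 232 and 193 in KO-TAC 1 to 3. A single library, WT-TAC 1, was low, and the other 5 overlapped. Its log2 fold change was 0.22 ± 0.24 (SE; edgeR unadjusted p = 0.365), and −0.03 without WT-TAC 1. Slc2a1, which encodes the insulin-independent GLUT1 of fetal and stressed heart, stood at 25.6, 22.7 and 17.4 CPM in WT-TAC and 26.4, 24.7 and 16.0 in KO-TAC, with both groups over the same range. Its log2 fold change was 0.03 ± 0.27, with an interval of the fold from 0.68 to 1.53.

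Slc2a3, the gene with the seed matches printed above (chr6:122727809-122801640, minus strand), was scarce. It had 55, 27 and 14 reads in WT-TAC 1 to 3 and 9, 25 and 17 in KO-TAC, or 8.65, 3.10 and 1.92 CPM against 1.32, 3.04 and 2.51. WT-TAC 1 was high and the other 5 libraries overlapped. A log2 fold change of −0.97 ± 0.67 resulted (edgeR unadjusted p = 0.168), lower in the mice without the microRNA, and it was −0.13 without WT-TAC 1 and −1.34 without WT-TAC 3. WT-TAC 1 is the library with the highest platelet markers, and the part of platelets in this value was not tested.

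Hexose phosphorylation and isomerisation showed no difference beyond the spread. Hk2, the insulin-regulated hexokinase of adult muscle, stood at 425, 491 and 497 CPM in WT-TAC and 417, 536 and 525 in KO-TAC (log2 fold change 0.06 ± 0.19). Hk1, the more widely expressed form, stood at 288, 257 and 172 CPM in WT-TAC and 204, 293 and 190 in KO-TAC (−0.06 ± 0.23). For Hk1 the ranges largely coincided, and for Hk2 the KO-TAC libraries lay on both sides of the wild-type range, 1 below and 2 above. Gpi1, which turns glucose 6-phosphate into fructose 6-phosphate, ranged from 313 to 475 CPM over the libraries, with a log2 fold change of 0.14 ± 0.20.

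The phosphofructokinase step held the gene of this pathway with the lowest p among those lower in KO-TAC. Pfkfb3 makes fructose 2,6-bisphosphate, the activator of phosphofructokinase, and is an inducible isoform (chr2:11471433-11554077, minus strand). Its CPM was 26.7, 21.6 and 15.8 in WT-TAC 1 to 3 and 18.7, 8.51 and 7.83 in KO-TAC 1 to 3. KO-TAC 2 and 3 lay below every wild-type library, and KO-TAC 1 lay between WT-TAC 2 and WT-TAC 3. The log2 fold change was −0.87 ± 0.36, a fold of 0.55 with a 95% interval from 0.32 to 0.93 (edgeR unadjusted p = 0.0295, adjusted p = 0.999). Its direction held with each library left out, at −1.38 without KO-TAC 1 to −0.66 without KO-TAC 3, with edgeR unadjusted p from 0.0020 to 0.117.

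The heart isoform of the same bifunctional enzyme, Pfkfb2, which phosphorylation by insulin and stress signals activates, had the opposite sign. It stood at 120, 110 and 144 CPM in WT-TAC and 115, 137 and 205 in KO-TAC, where KO-TAC 3 alone was above all wild-type libraries. The log2 fold change was 0.29 ± 0.22, and 0.01 without KO-TAC 3 to 0.46 without KO-TAC 1. Pfkfb1, the isoform known from liver and skeletal muscle, was low, at 3.30, 8.03 and 7.40 CPM in WT-TAC and 3.65, 2.31 and 7.09 in KO-TAC. Its log2 fold change was −0.53 ± 0.53, with overlapping groups, and ran from −1.08 without KO-TAC 3 to −0.22 without KO-TAC 2.

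Of the phosphofructokinase subunits, Pfkm of muscle was at 573, 753 and 753 CPM in WT-TAC and 623, 811 and 784 in KO-TAC (log2 fold change 0.09 ± 0.21). In each group the library numbered 1 was the lowest. The liver type Pfkl ranged from 76.6 to 126 CPM (−0.19 ± 0.20). The platelet type Pfkp was at 141, 75.3 and 52.2 CPM in WT-TAC and 86.8, 106 and 61.3 in KO-TAC (−0.08 ± 0.34). WT-TAC 1, with the highest platelet markers, was again the highest, and without it the log2 fold change of Pfkp was 0.41. Over the 6 genes of this step the median log2 fold change was −0.13, with 2 positive and 4 negative, and with 1 library left out it ran from −0.33 (without WT-TAC 3) and −0.25 (KO-TAC 2) to −0.08 (KO-TAC 1) and −0.04 (WT-TAC 1).

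Lower glycolysis, from aldolase to pyruvate kinase, had a median log2 fold change of 0.15 over 9 genes, 5 positive and 4 negative. That median was 0.06 without KO-TAC 1 and 0.0053 without KO-TAC 2. Aldoa, the muscle aldolase, stood at 1500, 1630 and 1319 CPM in WT-TAC and 1542, 2031 and 1485 in KO-TAC (log2 fold change 0.19 ± 0.21). KO-TAC 2 alone exceeded the wild-type range. Pkm, pyruvate kinase, varied little between libraries (highest over lowest 1.30), at 730, 796 and 720 CPM in WT-TAC and 642, 835 and 724 in KO-TAC (−0.03 ± 0.19). Its splice forms M1 and M2 share a gene and are not separated in gene counts. Tpi1, triose phosphate isomerase, ranged from 214 to 314 CPM (0.16 ± 0.19), Pgk1, phosphoglycerate kinase, from 126 to 164 (−0.01 ± 0.18), and Eno3, the muscle enolase, from 407 to 680 (0.15 ± 0.22).

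Gapdh, glyceraldehyde 3-phosphate dehydrogenase, is often used as a reference gene. It stood at 207, 189 and 167 CPM in WT-TAC and 104, 223 and 142 in KO-TAC, so that the KO-TAC libraries enclosed the wild-type range. Between genotypes the log2 fold change was −0.26 ± 0.25, and it ran from −0.60 without KO-TAC 2 (edgeR unadjusted p = 0.0222) to −0.03 without KO-TAC 1 (edgeR unadjusted p = 0.886). Its count is the most exposed of the 35 to near-identical copies. Of its transcript 94.2% matched at least 1 of 78 other annotated genes at 95% identity or more, 75 of them pseudogenes. The sources used here do not say how reads with several matches were counted. Summed with the 3 such copies in the table, of which Vmn2r60 had 0 reads, the log2 fold change was −0.24. The other copies have no row in the table, so this sum does not test what they contribute. Pseudogenes also matched 76.8% of the Ldhb transcript, 68.8% of Pgk1, 65.5% of Pkm, 55.0% of Ldha, 50.2% of Gpi1 and 19.3% of Tpi1, so the levels and ranks of these genes carry the same uncertainty.

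The phosphoglycerate mutases held the gene with the lowest p among those higher in KO-TAC. Pgam1, the isoform of brain and most other tissues (chr19:41911923-41918660, plus strand), stood at 12.7, 6.89 and 8.90 CPM in WT-TAC 1 to 3 and 23.7, 23.0 and 9.16 in KO-TAC 1 to 3. KO-TAC 1 and 2 lay above every wild-type library, and KO-TAC 3 lay within their range. The log2 fold change was 0.98 ± 0.38, a fold of 1.97 with a 95% interval from 1.11 to 3.48 (edgeR unadjusted p = 0.0235, adjusted p = 0.999). With each library left out it was 0.77 (without KO-TAC 1) to 1.30 (without KO-TAC 3), with edgeR unadjusted p from 0.0013 to 0.107. Pgam1 shared 43.1% of its transcript, identical over 765 bases, with a processed pseudogene, and reads from those could not be told apart. Pgam2, the muscle isoform and by level the main mutase, stood at 434 to 526 CPM in WT-TAC and 504 to 718 in KO-TAC (log2 fold change 0.26 ± 0.20).

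Eno1, the non-muscle enolase, was the only gene of the 35 with every KO-TAC library below every WT-TAC library, which is 1 gene against a background of 3.72% of tested genes. The separation rests on few reads, 14, 22 and 15 in WT-TAC and 9, 16 and 9 in KO-TAC, or 2.20, 2.52 and 2.05 CPM against 1.32, 1.94 and 1.33. Its log2 fold change was −0.55 ± 0.68, with a fold interval from 0.25 to 1.87, so the difference was not detectable at this depth. Of the Eno1 transcript 85.6% matched other annotated transcripts, among them Eno1b, which is in the table with 131 reads over all libraries. Summed with Eno1b the log2 fold change was −0.46. The 2 matching pseudogenes have no row in the table and are not in this sum.

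Lactate metabolism was the step with the most uniform sign, 3 genes positive and 0 negative, with a median log2 fold change of 0.20. The 4 tested lactate genes outside the 35 did not share it, with 2 positive, 2 negative and a median of 0.01. Ldha, the lactate dehydrogenase subunit of skeletal muscle and of hypoxic tissue (chr7:46841475-46855627, plus strand), stood at 332, 345 and 294 CPM in WT-TAC and 392, 418 and 383 in KO-TAC. All KO-TAC libraries were above all WT-TAC libraries, as for 4.26% of tested genes, and no other gene of the 35 showed that order. The difference was small, a fold of 1.23 with a 95% interval from 0.94 to 1.60, and did not pass (log2 fold change 0.30 ± 0.18, edgeR unadjusted p = 0.121, adjusted p = 0.999). With each library left out it was 0.23 to 0.35.

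Ldhb, the subunit that predominates in heart, stood at 676, 972 and 893 CPM in WT-TAC and 900, 981 and 1037 in KO-TAC. WT-TAC 1 was low and the rest overlapped, and the log2 fold change of 0.20 ± 0.21 was 0.06 without that library and 0.31 without WT-TAC 2. Slc16a1, which encodes the lactate and pyruvate carrier MCT1, ranged from 210 to 308 CPM (0.01 ± 0.20, and −0.099 without KO-TAC 1). Without WT-TAC 1 the median of the step was 0.06, and without WT-TAC 2 it was 0.31.

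Glycogen synthesis had a median log2 fold change of 0.11, with 4 genes positive and 2 negative. A single library moved it from −0.00056 (without KO-TAC 2) to 0.24 (without WT-TAC 3), with 0.02 without KO-TAC 3, 0.03 without WT-TAC 2 and 0.04 without WT-TAC 1. Gys1, the muscle glycogen synthase, stood at 111, 114 and 129 CPM in WT-TAC and 113, 138 and 152 in KO-TAC (log2 fold change 0.19 ± 0.18). KO-TAC 2 and 3 were above the wild-type range and KO-TAC 1 was inside it. Glycogenin, Gyg, ranged from 61.8 to 102 CPM (0.18 ± 0.20), the branching enzyme Gbe1 from 44.7 to 63.0 (−0.17 ± 0.19), and Ugp2, which makes UDP-glucose, from 224 to 321 (0.10 ± 0.20).

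Ppp1r3a and Ppp1r3c, which target protein phosphatase 1 to glycogen, varied widely between libraries of the same genotype. Ppp1r3a, the striated muscle form, ranged from 215 to 507 CPM in WT-TAC and from 194 to 388 in KO-TAC, with the library numbered 3 the highest in each group (log2 fold change −0.22 ± 0.35). Ppp1r3c, the widely expressed form, ranged from 119 to 187 CPM in WT-TAC and from 97.5 to 201 in KO-TAC (0.12 ± 0.26).

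Glycogen breakdown had a median log2 fold change of 0.05, with 3 genes positive and 2 negative, and with 1 library left out it ran from −0.08 (without WT-TAC 1) to 0.17 (without KO-TAC 1). Pygm, the muscle phosphorylase, stood at 682, 917 and 909 CPM in WT-TAC and 716, 922 and 955 in KO-TAC (log2 fold change 0.05 ± 0.21). Pygb, named for brain but also of heart, ranged from 654 to 944 CPM (0.07 ± 0.21). In both genes the library numbered 1 was the lowest of its group. Of the phosphorylase kinase subunits, the muscle alpha subunit Phka1 ranged from 66.0 to 87.9 CPM (0.09 ± 0.18) and the beta subunit Phkb from 51.9 to 98.1 (−0.09 ± 0.25).

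Phkg1, the catalytic gamma subunit of muscle, had the widest range among the glycogen genes of the 35. It stood at 5.66, 21.5 and 16.3 CPM in WT-TAC 1 to 3 and at 9.06, 7.90 and 8.57 in KO-TAC 1 to 3. The KO-TAC libraries were close together, above WT-TAC 1 and below WT-TAC 2 and 3. The log2 fold change was −0.77 ± 0.41 (edgeR unadjusted p = 0.0838), and it ran from −1.15 without WT-TAC 1 (edgeR unadjusted p = 0.0023) to −0.37 without WT-TAC 2 (edgeR unadjusted p = 0.424).

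Some libraries were high or low for many of the 35 genes at once, whatever their genotype. The highest library exceeded the lowest by a median of 1.65-fold over the 35 genes, against 1.91-fold over all tested genes, and by at least 2-fold for 10 of them (28.6% against 45.5%). KO-TAC 2 was the highest library for 13 of the 35 genes (37.1%), although it was the highest for 15.5% of all tested genes. These included Aldoa, Tpi1, Gapdh, Pgam2, Pkm, Ldha and Pygb. WT-TAC 1 was the lowest for 11 of the 35 (31.4% against 23.3%), including Slc2a4, Pfkm, Pgam2, Eno3, Ldhb, Gyg and Pygm. KO-TAC 1 was the lowest for 9 (25.7% against 15.9%). KO-TAC 2 had the highest Myh7, 14269 CPM against 2379 to 7253 in the other 5 libraries, but not the highest Nppa or Nppb. Nppb was 1492 CPM in KO-TAC 1 and 817 in KO-TAC 2. The part of the load response in these library values was not tested.

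**Figure D3:**
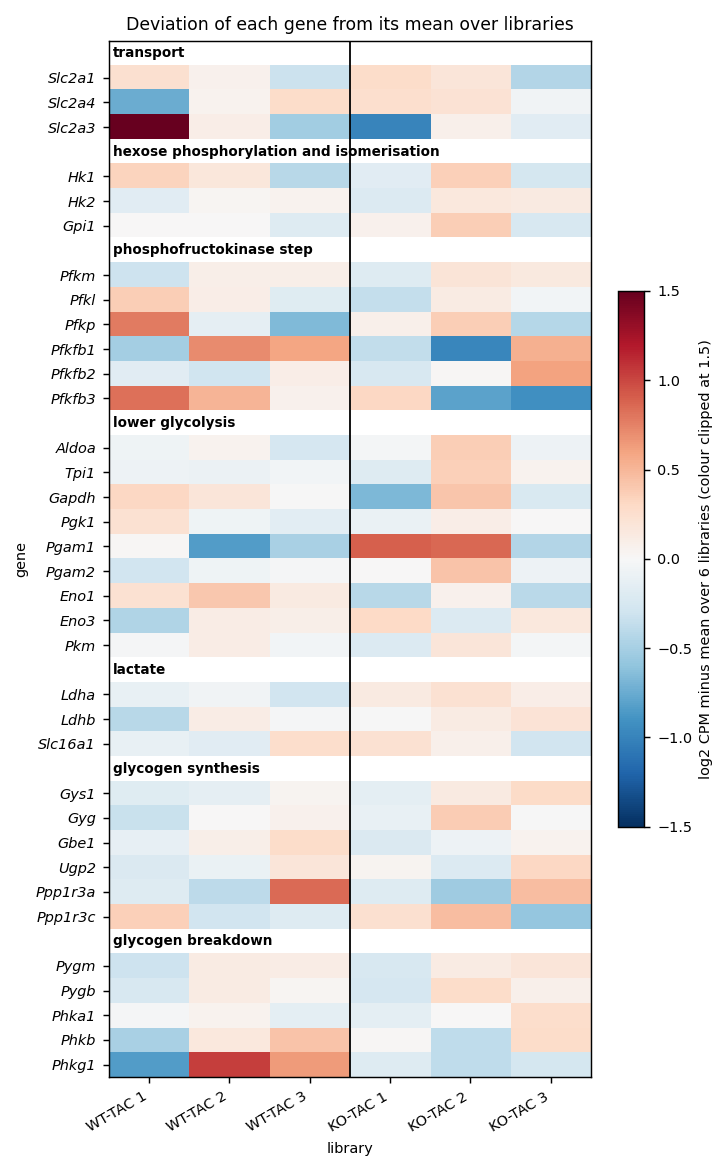
Log2 CPM of each gene minus its mean over the 6 libraries (colour, clipped at 1.5), with the WT-TAC libraries left and the KO-TAC libraries right of the line. The KO-TAC 2 column is above the mean for most genes of lower glycolysis, while the glycogen breakdown genes are below the mean in WT-TAC 1.

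Where a step has a muscle isoform and another isoform, library scaling enters their ratio only through the prior count. That count, scaled to library size, weighs most on genes with few reads, such as Eno1. For 9 isoform pairs the log2 ratio, other isoform over adult heart or muscle isoform, overlapped between the genotypes in every pair. The mean difference, KO-TAC minus WT-TAC, was largest for Pfkfb3 over Pfkfb2, at −1.19, where the log2 ratios were −2.15, −2.33 and −3.18 in WT-TAC 1 to 3 and −2.60, −3.97 and −4.66 in KO-TAC 1 to 3. KO-TAC 2 and 3 were below all WT-TAC libraries and KO-TAC 1 was not. For Eno1 over Eno3 it was −0.67 and for Pgam1 over Pgam2 0.63. Differences for the other 6 pairs ran from −0.28 for Pfkl over Pfkm to 0.09 for Ldha over Ldhb.

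Within WT-TAC the ratios were ordered alike in many pairs. WT-TAC 1 had the highest ratio of all 6 libraries in 7 of 9 pairs and WT-TAC 3 the lowest in 5. For Slc2a1 over Slc2a4 the log2 ratios were −2.20, −3.17 and −3.77 in WT-TAC 1 to 3 and −3.15, −3.22 and −3.57 in KO-TAC 1 to 3. For Pfkp over Pfkm they were −2.02, −3.32 and −3.84 in WT-TAC and −2.84, −2.93 and −3.67 in KO-TAC. The summed platelet markers and the collagens given above were also highest in WT-TAC 1. Of the cardiomyocyte markers, Myl2, Myl3 and Tnni3 were lowest there, while Myh6, Tnnt2, Actc1 and Ryr2 were lowest in KO-TAC 1. The part of any of these in the ratios was not tested.

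**Figure D4:**
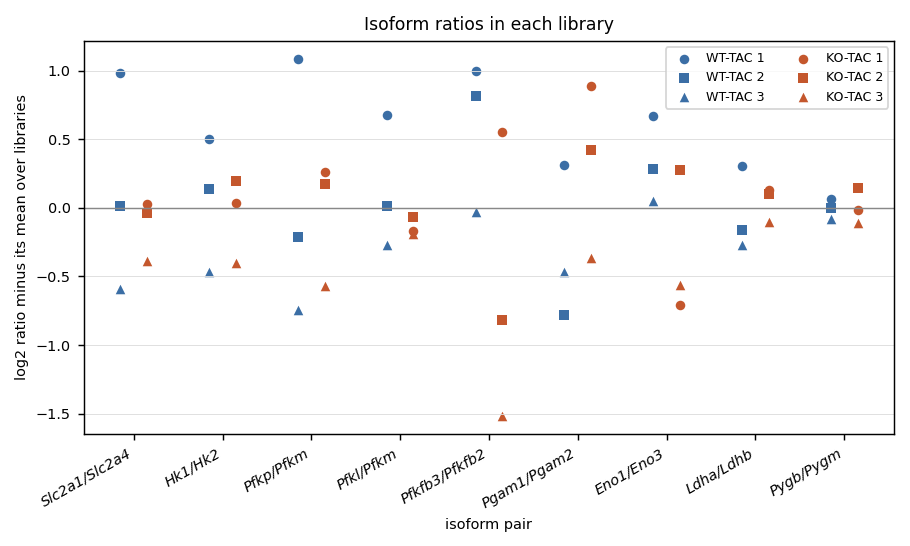
Log2 ratio of each isoform pair in each library, minus the mean of that ratio over the 6 libraries, for 3 WT-TAC (blue) and 3 KO-TAC (orange) libraries. WT-TAC 1 (blue circle) is the highest point in 7 of the 9 pairs, and the genotypes overlap in all 9.

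Other genes of these pathways were read from the same edgeR fit. Of 57 listed, all in the table, 48 were tested, with 18 positive and 30 negative log2 fold changes and a median of −0.10. None passed the adjusted threshold in either direction (0 higher and 0 lower), against 0.0240% of all tested genes. Of the 48, 1 had an unadjusted p under 0.05, against 2.93% of all tested genes. That gene was Slc2a12, which encodes GLUT12, a further glucose transporter of muscle. It stood at 2.36, 3.56 and 3.97 CPM in WT-TAC 1 to 3 and 11.8, 3.52 and 7.09 in KO-TAC 1 to 3, with KO-TAC 2 inside the wild-type range. Its log2 fold change was 1.17 ± 0.51 (edgeR unadjusted p = 0.0395, adjusted p = 0.999). The 18 tested glycogen genes outside the 35, such as the synthase kinase gene Gsk3b (−0.16 ± 0.18), had a median of −0.13 with 6 positive and 12 negative. The 9 regulators, AMP-activated kinase subunits and glucose- and oxygen-sensing factors, had a median of −0.12 with 3 positive and 6 negative.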

How the data were processed

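The deposited table holds raw counts per gene symbol, not normalized by the authors. Tools named in the submitters' processing notes are HISAT2 2.1.0, Subread, FastQC and edgeR, with mm10 and GRCm38 as builds, none with a stated role. Per the labels' protocols, plain or stranded TruSeq kits were used, but the sources used here do not tie a kit to a library, so antisense and overlapping reads cannot be told apart. The column assigned to KO-TAC 3 bears another number than the label, that of the WT-TAC 3 column. Its library index, found in the label of KO-TAC 3 alone, put it there. Its likeness to WT-TAC 3, and the leading counts without it, stand among the results.

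Counts were fitted with edgeR 4.0.16 (filterByExpr with a minimum of 10, TMM, robust quasi-likelihood, no covariate), with adjustment over 12487 genes, and the scripts were tested on simulated data. Intervals use the t quantile with the fit's degrees of freedom. CPM use TMM-scaled library sizes, and log2 ratios a prior count of 2. Depth of 6411538 to 8571737 counts and a common biological coefficient of variation of 0.286 mean that spread between libraries limits all but the lowest genes. Exon lengths, positions and 3′ UTRs come from GENCODE M21 on GRCm38, in which all 35 symbols were found, and near-identical copies from blastn 2.17.0 (at least 95% identity over 200 bases). All columns were used.

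The 35 genes and the lists were chosen with earlier results of these data known. Values of every library are given for genes with an unadjusted p under 0.05, groups that do not overlap or an absolute log2 fold change of at least 0.5, and for the main genes of each step. Alternatives were RLE and upper-quartile scaling, no filter, a minimum count of 30, DESeq2 1.42.0, limma-voom (limma 3.58.1), the replicate number as a block, each library left out, another prior count, exon length and site class. Summing Gapdh and Eno1 with their copies was chosen after seeing the data.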

Additional observations from a re-analysis of the deposited data

How the results depend on the processing

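None of the 35 genes was called in any of the 13 alternatives run or with copies summed, while calls over all genes ran from 0 (limma-voom and edgeR without WT-TAC 1, with 376 and 437 genes at an unadjusted p under 0.05) to 21 (no filter), with 16 by DESeq2, against 3. Fits without 1 library called 0 to 7 genes, and the median log2 fold change of the 35 lay between −0.018 and 0.11. Direction held for 17 genes in every alternative and turned for 18, with 34 of 453 values reversed, 32 of them with a library left out. The lowest and highest values with 1 library left out were −0.11 and 0.22 for Slc2a1, −0.026 and 0.44 for Slc2a4, −0.28 and 0.089 for Hk1, −0.0082 and 0.17 for Hk2, −0.021 and 0.28 for Gpi1, −0.030 and 0.20 for Pfkm, −0.35 and 0.41 for Pfkp, −0.084 and 0.11 for Pgk1, and −0.0098 and 0.29 for Eno3. They were −0.13 and 0.060 for Pkm, −0.099 and 0.16 for Slc16a1, −0.042 and 0.22 for Ugp2, −0.55 and 0.26 for Ppp1r3a, −0.096 and 0.37 for Ppp1r3c, −0.082 and 0.17 for Pygm, −0.058 and 0.20 for Pygb, −0.032 and 0.18 for Phka1, and −0.31 and 0.12 for Phkb. Pfkp also turned to 0.021 by limma-voom; the cause was not tested. With the replicate number as a block Pfkp was 0.0096, the median of the 35 was 0.059 with 0 called, and calls over all genes were 6. Deviations of same-numbered libraries correlated at 0.13, 0.011 and 0.26, and WT-TAC 1 correlated best with KO-TAC 2, at 0.15, so the numbers were not taken as pairs. Seed matches were in 9 genes by the 6-letter core and in 0 by the 8-letter site. Since these motifs contain one another, only the direction was fixed: the core could not give fewer genes, nor the longer site more. All 63 isoform differences and 85 of 91 step medians moved by less than their spread. With 1 library left out the isoform result was fixed in advance: dropping 1 of 3 libraries cannot shift a group mean that far. It does not show that the direction of these differences held. With the longest transcript, 22 of 35 levels per kilobase moved by more than their spread. Slc2a3 and Eno1 have no value at a minimum count of 30. Depth limits genes with few reads, such as Eno1, Slc2a3 and Pfkfb1.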
